A study of Mus musculus with 8 samples.

Results

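Pex5l, Hcn2, Hcn3 and Hcn4 were followed across the cell classes of the mouse cerebral cortex. Hcn2, Hcn3 and Hcn4 encode subunits of the HCN pacemaker channels, and Pex5l encodes TRIP8b, the auxiliary subunit that controls how many of these channels reach the membrane and where. They were taken by symbol from the gene list of the deposited matrices, 4 of 32285 genes, and other HCN subunits were not analysed here. They were chosen by family, with their summed UMI levels across classes and between genotypes already seen in earlier results of these data. The levels across classes are therefore a description with no test, and unadjusted p-values between genotypes are not independent evidence. The study profiled single nuclei from the cortex of C57BL/6J mice at postnatal day 25, after removal of the medial cortex, and asked how a heterozygous loss of Chd8 changes expression in each cell type. There were 4 wild-type (WT) animals, 2 males and 2 females, and 4 Chd8+/- animals (Chd8het), 2 males and 2 females, with 1 library per animal. Per the series' design text the animals formed 4 pairs of WT and Chd8het mice matched for litter and sex, but the pairing of individual libraries is not stated. The make-up of the Chd8 allele is not given in the sources used here.

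HCN channels open when the membrane becomes more negative and carry the inward cation current Ih, which sets resting potential, input resistance and rhythmic firing. Cyclic AMP binds to the intracellular end of the channel and makes it easier to open. TRIP8b competes with cyclic AMP at that site and also grips the extreme C terminus of the channel through its tetratricopeptide repeats. In cortex the current is best known from the apical dendrites of thick-tufted layer 5 pyramidal neurons.

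The last coding bases of the 3 channel genes are shown because they encode the tail that TRIP8b holds. They were read from the GRCm38 genome with the GENCODE M21 annotation, 30 bases before the stop codon, 5′ to 3′ on the coding strand. Capitals mark the last 9 bases, the codons of the terminal residues.
Hcn2, chr10:79735508-79735537, plus strand: tctgcgcgctcgcgcctctctTCCAACTTG
Hcn3, chr3:89147602-89147631, minus strand: cccagaggtccccaaatttctGCCAACATG
Hcn4, chr9:58860731-58860760, plus strand: ccagtacgctccaaactgccgTCTAATTTA
Over their coding sequences, Hcn2 and Hcn4 matched at 79.1% of aligned bases, Hcn3 and Hcn4 at 77.8%, and Hcn2 and Hcn3 at 74.7%. The annotated transcripts with a complete coding sequence, untranslated regions included, were also compared. No stretch of 90 bases, the length of the sequenced RNA read, was shared between these genes, so an exonic read could be told apart between the 3 genes.

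The genes differ in length and in how exposed they are to reads from the opposite strand. Pex5l (ENSMUSG00000027674) spans chr3:32949408-33143247 on the minus strand with 15 exons. It is overlapped by 2 antisense RNAs on the plus strand, Gm37459 and 4930419G24Rik, which were counted separately with 93402 and 185285 UMIs over all nuclei, against 562340 for Pex5l. The sources used here do not say whether the counting used strand or introns, so reads from Pex5l and these partners cannot be told apart with certainty. Hcn3 (ENSMUSG00000028051, chr3:89146074-89160196, minus strand) overlaps the end of Pklr, which had only 73 UMIs. Hcn2 (ENSMUSG00000020331, chr10:79716634-79736108, plus strand) and Hcn4 (ENSMUSG00000032338, chr9:58823412-58863175, plus strand) overlap no other gene of that annotation.

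The matrices held UMI (unique molecular identifier) counts with a total of 69.5 to 98.1 (in units of 1e+06 UMIs) per library. After filters 77890 nuclei were kept, 7503 to 10988 per library, and 81.7% of them fell in clusters that fixed marker genes could name. The names mean resemblance to a class by markers, and 19 classes with at least 30 nuclei in every library (62704 nuclei) were used. Among 77168 distinct cell barcodes 715 occurred in more than 1 library, 19 to 36 for any pair of libraries. Chd8 itself was at 74.9 to 81.3 CPM in the WT libraries and 76.0 to 89.6 CPM in the Chd8het libraries, so its level does not check the labels and genotype is used as labelled. CPM is the count per 1e+06 UMIs, summed over the nuclei of a class in a library. The share of nuclei that could be named was lowest in Chd8het male 2 (68.3%), and 83.3% of 1 unnamed cluster came from that library.

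Over all nuclei, Pex5l was by far the most abundant of the 4 genes. Its level was 990 ± 127 CPM (SD, n = 8 libraries), against 33.3 ± 2.55 for Hcn2, 5.08 ± 0.863 for Hcn3 and 0.935 ± 0.344 for Hcn4. Per kb of gene span, introns included, the levels were 5.11 CPM per kb for Pex5l, 1.71 for Hcn2, 0.360 for Hcn3 and 0.0235 for Hcn4. The order of the 4 genes was therefore the same on the scale per length, with a smaller gap between Pex5l and Hcn2. Hcn4 rested on 41 to 127 UMIs per library, so its values by class are coarse.

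**Figure D1:**
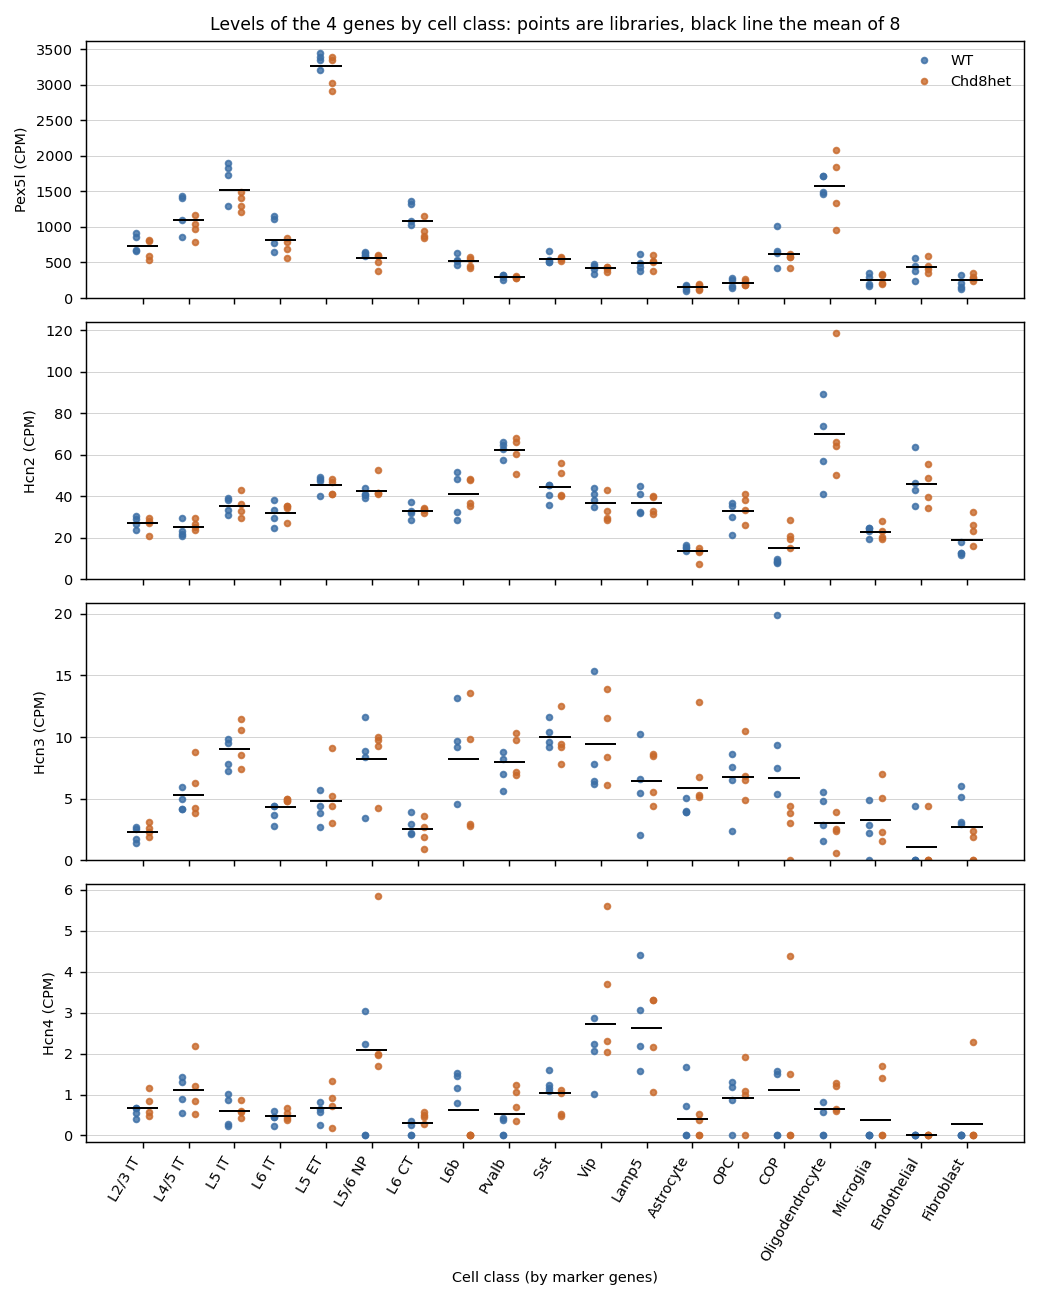
Levels of Pex5l, Hcn2, Hcn3 and Hcn4 (CPM, linear axes that differ between panels) in the 19 cell classes. Each point is 1 library, WT in blue and Chd8het in orange, and the black line is the mean of 8. Pex5l stands out in L5 ET (mean 3261) and Hcn2 has its highest means in oligodendrocytes (69.9, with a wide spread) and Pvalb (62.1), while Hcn4 is near 0 in most classes.

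Pex5l was highest in layer 5 extratelencephalic neurons (L5 ET-like), the thick-tufted cells that project out of the telencephalon. In the 8 libraries its level there ran from 2914 through a median of 3351 to 3452 CPM, with a mean of 3261 ± 196. Every library of L5 ET-like nuclei lay above every library of all other classes. The ratio of L5 ET-like to layer 5 intratelencephalic (L5 IT-like) nuclei in the same library was 2.20 ± 0.337 (SD, n = 8), and it was above 1 in 8 of 8 libraries. Against Pvalb-like interneurons the ratio was 11.1 ± 1.104 and against astrocyte-like nuclei 23.4 ± 6.94.

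Oligodendrocyte-like nuclei came next. Pex5l there ran from 953 through a median of 1605 to 2085 CPM, with a mean of 1575 ± 346. L5 IT-like nuclei had a similar mean, 1517 ± 267 CPM, and a range of 1207 to 1896 that overlapped that of the oligodendrocytes. The remaining excitatory classes followed with 1098 ± 237 CPM in L4/5 IT, 1077 ± 192 in layer 6 corticothalamic (L6 CT), 821 ± 209 in L6 IT, 734 ± 133 in L2/3 IT, 570 ± 89.3 in near-projecting (L5/6 NP) and 518 ± 71.9 in L6b.

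In the interneuron classes, whose means lay in the range of L5/6 NP and L6b or below it, Pex5l was at 552 ± 54.0 CPM in Sst-like, 493 ± 89.1 in Lamp5-like, 418 ± 45.6 in Vip-like and 296 ± 25.9 in Pvalb-like nuclei. Among neighbours in the full order of 19 classes, 16 of 18 had overlapping ranges, and the exceptions were L5 ET above oligodendrocyte and Vip above Pvalb.

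The lowest values of Pex5l, 149 ± 38.8 CPM in astrocyte-like, 216 ± 49.7 in oligodendrocyte precursor (OPC)-like, 247 ± 80.8 in fibroblast-like and 260 ± 74.1 in microglia-like nuclei, are given beside a gauge of free neuronal RNA. Slc17a7, the vesicular glutamate transporter of excitatory neurons, was at 119 ± 22.3 CPM in astrocyte-like and 200.2 ± 37.1 in microglia-like nuclei, against 221 ± 24.4 in L2/3 IT-like neurons. In oligodendrocyte-like nuclei Slc17a7 was at 88.6 ± 18.5 CPM, lower than in those classes, while the mean of Pex5l there was above that of every excitatory class but L5 ET. In endothelial-like nuclei Pex5l was at 430 ± 113 CPM beside a Slc17a7 level of 202 ± 46.3. Snap25, a gene of all neurons, was at 512 ± 151 CPM in endothelial-like and 407 ± 54.2 in microglia-like nuclei, and the Pex5l ranges of these classes overlapped. In OPC-like nuclei Slc17a7 was at 107 ± 19.2 CPM. The part of free RNA in the Pex5l values of these classes was not tested.

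Shares of nuclei with a Pex5l UMI were also highest in L5 ET-like and lowest in astrocyte-like nuclei after thinning. After each nucleus was thinned to 2000 UMIs, the share was 98.0% ± 0.763 (SD, n = 8 libraries) in L5 ET-like and 75.8% ± 5.57 in oligodendrocyte-like nuclei, and 24.1% ± 5.85 in astrocyte-like nuclei. Unthinned, these shares were 99.7%, 83.5% and 31.5%. Median depths were 12524, 3208 and 2610 UMIs, and thinning left out 10, 500 and 1588 shallower nuclei. The thinned shares of L5 IT (86.1%), L6 CT (81.2%) and L4/5 IT (79.1%) were above that of oligodendrocytes, unlike their mean CPM, so no order between these classes is read from the shares.

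Along the oligodendrocyte lineage the level of Pex5l was ordered by class in every library. It was 216 ± 49.7 CPM in OPC-like nuclei, 616 ± 185 in committed oligodendrocyte precursor (COP)-like nuclei and 1575 ± 346 in oligodendrocyte-like nuclei. The ratio of COP to OPC in the same library was 2.88 ± 0.666 and that of oligodendrocyte to OPC 7.71 ± 2.63, both above 1 in 8 of 8 libraries. Hcn2 took another course, with 32.8 ± 6.58 CPM in OPC-like, 14.8 ± 7.52 in COP-like and 69.9 ± 24.5 in oligodendrocyte-like nuclei. Its ratio of oligodendrocyte to COP was 5.59 ± 2.80, above 1 in 8 of 8 libraries, but the COP values rested on only 3 to 14 UMIs per library.

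**Figure D2:**
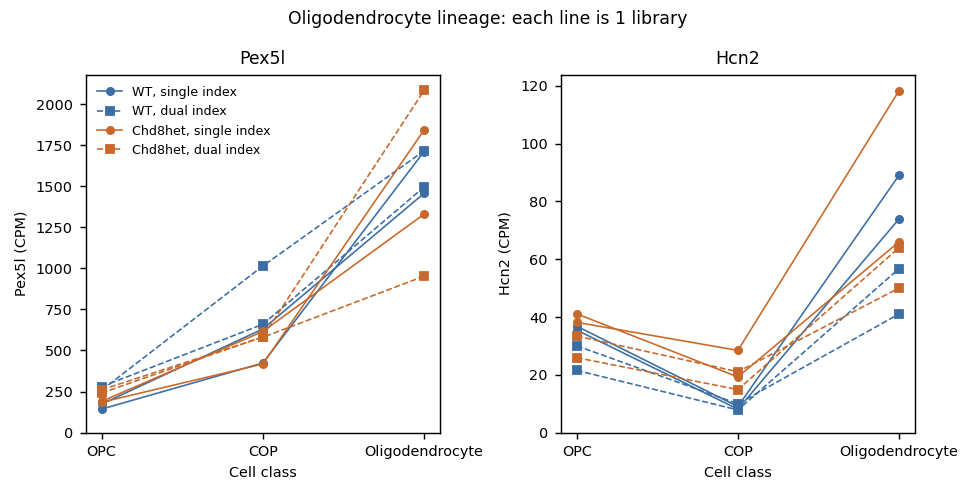
Pex5l and Hcn2 (CPM) in OPC-, COP- and oligodendrocyte-like nuclei. Each line is 1 library, coloured by genotype, with circles and solid lines for single-indexed and squares and dashed lines for dual-indexed libraries. Pex5l goes from a mean of 216 through 616 to 1575, while Hcn2 is lowest in COP (mean 14.8).

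Hcn2, the subunit found widely in brain, had its highest mean over all 8 libraries in oligodendrocyte-like nuclei. In the dual-indexed WT libraries, however, the mean in Pvalb was higher. The single-indexed means were 81.6 CPM (WT) and 92.2 (Chd8het) in oligodendrocytes against 63.8 and 67.2 in Pvalb. The dual-indexed means were 48.9 and 57.0 against 61.8 and 55.4 (n = 2 each). The 8 libraries of oligodendrocytes ran from 41.1 through a median of 65.1 to 118 CPM, the widest spread of this gene in any class. Pvalb-like interneurons had 62.1 ± 5.81 CPM, from 50.7 to 68.3. Endothelial-like nuclei had 45.9 ± 10.1 CPM on only 5 to 10 UMIs per library, beside a Slc17a7 level of 202 ± 46.3 CPM. The part of free RNA in the endothelial value was not tested.

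Within neurons the order of Hcn2 put Pvalb first and then L5 ET with 45.3 ± 3.85 CPM, Sst with 44.4 ± 6.67 and L5/6 NP with 42.7 ± 4.32. The upper layers were lowest, L2/3 IT with 26.97 ± 3.16 CPM and L4/5 IT with 25.0 ± 3.31. Pvalb exceeded L4/5 IT by 2.53-fold ± 0.449 and L5 ET exceeded L2/3 IT by 1.69-fold ± 0.145, each in 8 of 8 libraries. Astrocyte-like nuclei had the lowest level, 13.7 ± 2.83 CPM. All 18 neighbours in the order of Hcn2 overlapped in range.

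Thinned to 2000 UMIs, a Hcn2 UMI was seen in 12.5% ± 4.05 of oligodendrocyte-like nuclei, 12.5% ± 1.41 of Pvalb-like nuclei and 9.09% ± 1.96 of L5 ET-like nuclei. The share in astrocyte-like nuclei was 2.66% ± 0.883. Unthinned, the shares were 18.5%, 39.7%, 44.5% and 3.56%.

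Hcn3, which forms a slowly opening channel that is little affected by cyclic AMP, had its highest means in interneurons. Sst-like interneurons had 9.97 ± 1.49 CPM, from 7.79 to 12.5, and Vip-like interneurons 9.47 ± 3.65, from 6.11 to 15.3. L5 IT-like neurons had 9.04 ± 1.55 CPM and L6b-like neurons 8.21 ± 4.29. The other interneurons had lower means than these, 7.98 ± 1.58 CPM in Pvalb-like and 6.43 ± 2.64 in Lamp5-like nuclei. At the low end of the neurons, L6 CT had 2.57 ± 0.969 CPM and L2/3 IT 2.29 ± 0.563.

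Among IT neurons Hcn3 was higher in L5 IT than in L2/3 IT, with a ratio of 4.21 ± 1.39 that was above 1 in 8 of 8 libraries, while L4/5 IT (5.29 ± 1.66 CPM) and L6 IT (4.36 ± 0.787 CPM) lay between them. The ratio of Sst to L2/3 IT was 4.56 ± 1.13, also above 1 in 8 of 8 libraries. L5 IT exceeded L5 ET by 2.16-fold ± 0.909, in 7 of 8 libraries, so Hcn3 and Pex5l had opposite orders in these layer 5 classes. All 18 neighbours in the order of Hcn3 overlapped.

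Hcn4, the main pacemaker subunit of the heart, was scarce. The highest means were 2.73 ± 1.39 CPM in Vip-like, 2.64 ± 1.08 in Lamp5-like and 2.09 ± 1.85 in L5/6 NP-like nuclei, on 0 to 7 UMIs per library. In endothelial-like nuclei no Hcn4 UMI was found among 1351797, which allows up to 2.22 CPM by counting error alone. The range of every class overlapped that of its neighbours in the order. Farther apart in it, the lowest libraries of Vip (1.02 CPM) and Lamp5 (1.06 CPM) lay just above the highest of L5 IT (1.016 CPM) and above those of L6 IT (0.660) and L6 CT (0.569), on 1 UMI in each of these lowest libraries.

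The 4 genes shared little of their profile across classes. Over the 19 class means of log2(CPM + 1), Pearson's r was 0.41 between Pex5l and Hcn2, 0.63 between Hcn3 and Hcn4, and between 0.00 and 0.16 for the other combinations. The classes share libraries, so these values are a description. Of 16199 genes searched, the profile most like that of Pex5l belonged to its antisense RNAs, 4930419G24Rik with r = 0.97 and Gm37459 with r = 0.97. Next came Faah, which encodes an enzyme that degrades endocannabinoids (r = 0.84), Ankrd13b (0.83) and Agtpbp1, which encodes a tubulin-trimming carboxypeptidase (0.82).

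For Hcn2 the most alike gene was Tubb3, the neuronal tubulin (r = 0.87), followed by Cdan1 (0.81), Gdpd1 (0.81), the tubulin-modifying Ttll7 (0.81) and the axonal adhesion molecule Cntn2 (0.78). Hcn3 was most like A730090N16Rik (0.82), Armc6 (0.81) and the transfer RNA synthetase genes Vars (0.80) and Aars (0.80), with Spire2 (0.80) next. Hcn4 was most like Agk (0.85), Necab2 (0.80), Gm26901 (0.80), Gm35842 (0.80) and Popdc3 (0.79), but its class means rest on few counts. Some class means of Hcn3 do as well, with 2 UMIs in endothelial-, 9 in fibroblast- and 18 in microglia-like nuclei. For all 4 genes these are the highest of 16199 values over 19 class means. How high r would come out for unrelated genes was not tested.

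Between genotypes, none of the 4 genes passed the test in any class or over all nuclei. The test was the edgeR quasi-likelihood F test with sex in the model and Benjamini-Hochberg adjustment over all genes of a class, called at an adjusted p under 0.05. Over the 19 classes 0% of 204127 gene tests were called, and over all nuclei 0% of 21225. At an unadjusted p under 0.05 the share was 2.46% over the classes and 1.39% over all nuclei. With DESeq2's Wald test 12 gene tests over the classes and 5 over all nuclei were called, none of them for the 4 genes.

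Pex5l showed the same direction in every excitatory class without passing the test. Over all nuclei WT males 1 and 2 had 989 and 1182 CPM and WT females 1 and 2 had 894 and 1146. The Chd8het males had 933 and 915 CPM and the Chd8het females 816 and 1048, and further values by library follow this order (male 1, male 2, female 1, female 2). The groups overlapped, and the highest values in each belonged to dual-indexed libraries (replicate 2) except for Chd8het male 2. The log2 change was -0.21 (SE 0.12, edgeR adjusted p 1). In the sum of all nuclei, a change in the make-up of classes and a change per nucleus cannot be told apart. Some classes also joined more than 1 cluster, such as L5 IT with clusters of 2881 and 425 nuclei. Make-up within a class was not examined.

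In L5 ET-like nuclei, where Pex5l is highest, the WT libraries had 3387, 3452, 3214 and 3351 CPM and the Chd8het libraries 3398, 2914, 3019 and 3351 CPM. The log2 change was -0.13 (SE 0.08, edgeR adjusted p 1), and Chd8het male 2 held the lowest value. In L5 IT-like nuclei the WT libraries had 1725, 1896, 1290 and 1833 CPM and the Chd8het libraries 1292, 1491, 1207 and 1403 CPM. Here the Chd8het library was lower in all 4 combinations of sex and replicate number, and WT female 1 alone reached into the Chd8het range. The log2 change was -0.35 (SE 0.13, unadjusted p 0.0209, edgeR adjusted p 1), and the ratio of means on the log2 scale was -0.27 for the single-indexed libraries and -0.37 for the dual-indexed ones.

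In L4/5 IT-like nuclei the WT libraries had 1102, 1414, 854 and 1442 CPM and the Chd8het libraries 972, 1167, 792 and 1044 CPM, a log2 change of -0.31 (SE 0.18, edgeR adjusted p 1). The Chd8het library was again lower in 4 of 4 combinations, but WT female 1 lay below 3 of the 4 Chd8het libraries. Oligodendrocyte-like nuclei had a log2 change of -0.12 (SE 0.19, edgeR adjusted p 1), with 1713, 1717, 1458 and 1496 CPM in WT and 1331, 953, 1844 and 2085 CPM in Chd8het. Both Chd8het males were below all WT libraries there and both Chd8het females above them.

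**Figure D3:**
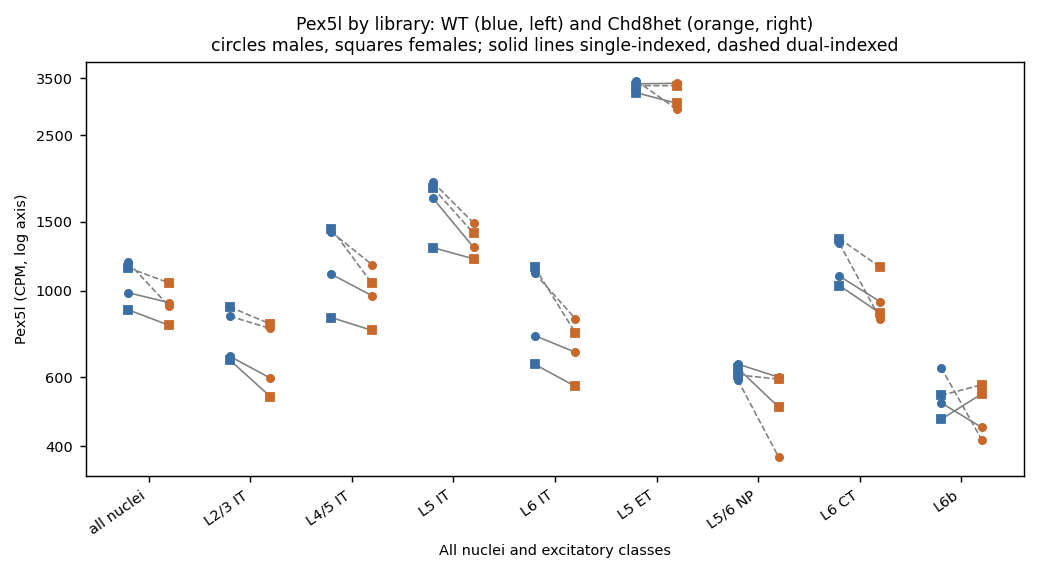
Pex5l (CPM, log axis) in all nuclei and the 8 excitatory classes, WT in blue on the left and Chd8het in orange on the right. Circles are males and squares females, and lines join libraries that share sex and replicate number, solid for single-indexed and dashed for dual-indexed. In 6 of the 8 classes all 4 lines go down, and in L5 ET and L6b they do not.

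Over the 8 excitatory classes, Pex5l had log2 changes from -0.36 to -0.13, with a median of -0.30, all negative. Of 8004 genes tested in all 8 classes, 7.18% were lower in all 8, so a shared direction alone is common. An unadjusted p under 0.05 was reached in 3 of the 8, L5 IT, L6 CT (-0.35, SE 0.13, p 0.0245, edgeR) and L5/6 NP (-0.30, SE 0.13, p 0.0409, edgeR), and 0.325% of the 8004 genes were lower at that level in 3 or more. In the other 11 classes the log2 changes ran from -0.33 to 0.57 with a median of 0.01, and 5 of them (Pvalb, Sst, Vip, COP and oligodendrocyte) were below 0. The 8 excitatory classes come from the same animals and are not independent. The genotype levels of Pex5l were also known when it was chosen. The shares of genes given here, and with the block below, are therefore a description and not a test. Whether the excitatory classes differ from the others was not tested.

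With a block for each combination of sex and replicate number, 6 of the 8 excitatory classes had an unadjusted p under 0.05 for Pex5l, and 0.6% of the 8004 genes were lower at that level in 6 or more. The smallest adjusted p was 0.191, in L5 IT (log2 change -0.34, SE 0.06, edgeR with the replicate block), so no call was made. The antisense RNAs that overlap Pex5l went the same way in L5 IT-like nuclei. Under the same block 4930419G24Rik changed by -0.46 (SE 0.07, edgeR adjusted p 0.0871) and Gm37459 by -0.67 (SE 0.15, edgeR adjusted p 0.424). Their part in the counts of Pex5l was not tested.

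The only class with Pex5l higher in Chd8het at an unadjusted p under 0.05 was the fibroblast-like class. The WT libraries had 126, 205, 150 and 317 CPM there, and the Chd8het libraries 285, 299.9, 242 and 349.7 CPM. The groups overlapped through WT female 2, and the log2 change was 0.57 (SE 0.24, p 0.0336, edgeR adjusted p 0.986). The Chd8het library was higher in 4 of 4 combinations of sex and replicate number, and with the block the change was 0.62 (SE 0.19, p 0.00427, edgeR adjusted p 0.428). In this class 4.72% of all genes reached an unadjusted p under 0.05, and 6.72% did with the block. The female 2 libraries of this class correlated at only r = 0.028 in the check of pairs described below, and were not each other's best match. Slc17a7 was at 124 ± 19.2 CPM in this class, and the part of free RNA in the difference was not tested.

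**Figure D4:**
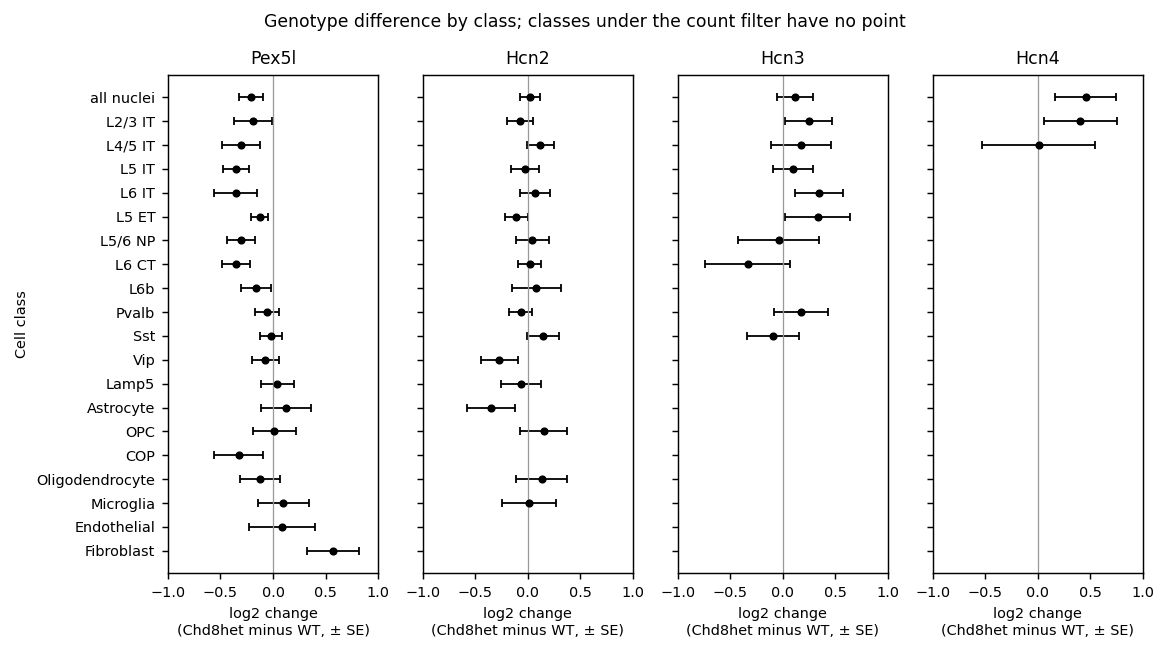
Log2 change (Chd8het minus WT, edgeR, ± SE) of Pex5l, Hcn2, Hcn3 and Hcn4 in all nuclei and 19 classes. Classes under the count filter have no point. Pex5l lies below 0 in 8 of 8 excitatory classes (median -0.30), Hcn2 lies on both sides of 0, and no point passed the adjusted threshold.

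Hcn2 was tested in 16 classes and had negative log2 changes in 7 and positive ones in 9, from -0.35 to 0.15 with a median of 0.01. Over all nuclei the WT libraries had 32.9, 32.4, 36.5 and 29.2 CPM and the Chd8het libraries 34.55, 34.7, 35.8 and 30.5 CPM, in the order used above. The ranges overlapped almost fully. In Pvalb-like nuclei the values were 64.8, 66.3, 62.8 and 57.4 CPM in WT and 68.3, 60.2, 66.2 and 50.7 CPM in Chd8het, a log2 change of -0.07 (SE 0.11, edgeR adjusted p 1).

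In L5 ET-like nuclei Hcn2 was at 49.4, 48.3, 47.3 and 40.2 CPM in WT and 41.1, 48.3, 46.9 and 40.9 CPM in Chd8het, a log2 change of -0.11 (SE 0.11, edgeR adjusted p 1). In oligodendrocyte-like nuclei it was at 74.0, 41.1, 89.15 and 56.8 CPM in WT and 66.1, 50.05, 118 and 64.0 CPM in Chd8het, a log2 change of 0.13 (SE 0.24, edgeR adjusted p 1). In each sex and genotype, the dual-indexed library was the lower one there. COP-like nuclei fell under the count filter, but their groups did not overlap, with 8.10, 9.93, 8.997 and 7.82 CPM in WT and 19.2, 21.1, 28.4 and 14.9 CPM in Chd8het on 3 to 14 UMIs each.

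Hcn3 was tested in 9 classes, with 3 negative and 6 positive log2 changes from -0.34 to 0.35 and a median of 0.17. Over all nuclei the WT libraries had 3.77, 4.61, 5.36 and 5.60 CPM and the Chd8het libraries 4.51, 6.33, 4.51 and 5.93 CPM, a log2 change of 0.12 (SE 0.17, edgeR adjusted p 1). In Sst-like nuclei the values were 9.19, 10.4, 9.58 and 11.6 CPM in WT and 9.23, 9.41, 7.79 and 12.5 CPM in Chd8het, with a log2 change of -0.09 (SE 0.25, edgeR adjusted p 1). The Chd8het range enclosed the WT range in that class. In L5 IT-like nuclei they were 9.49, 7.81, 7.22 and 9.82 CPM in WT and 10.6, 11.5, 8.52 and 7.42 CPM in Chd8het, a log2 change of 0.09 (SE 0.19, edgeR adjusted p 1).

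Vip-like and L6b-like nuclei fell under the count filter for Hcn3. In Vip-like nuclei the ranges were 6.17 to 15.3 CPM in WT and 6.11 to 13.9 CPM in Chd8het, and in L6b-like nuclei 4.57 to 13.1 and 2.78 to 13.6 CPM. In 3 classes with at least 10 UMIs in all, the genotypes did not overlap for Hcn3. They were L6 IT (3.81 ± 0.797 CPM in WT and 4.91 ± 0.0962 in Chd8het), astrocyte (4.23 ± 0.567 and 7.49 ± 3.62) and COP (10.5 ± 6.43 and 2.81 ± 1.96), each SD over n = 4. Their counts were low, with 12 to 29, 7 to 33 and 0 to 10 UMIs per library. Astrocyte and COP fell under the count filter for Hcn3. With Hcn2 in COP this made 4 of 66 combinations of member and class without overlap, 6.06%, against 2.21% of all combinations of gene and class. The directions were mixed, and the astrocyte mean of Chd8het rested on Chd8het male 2 with 12.8 CPM.

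Hcn4 passed the count filter in all nuclei, L2/3 IT and L4/5 IT, and 17 classes fell under it. Over all nuclei the WT libraries had 0.639, 0.926, 0.735 and 0.802 CPM and the Chd8het libraries 0.676, 1.69, 1.13 and 0.877 CPM. The log2 change was 0.46 (SE 0.29, edgeR adjusted p 1), and Chd8het male 2 held the highest value. Without Chd8het male 2 the change was 0.14, and with any other library left out it lay between 0.34 and 0.65. The Chd8het library was the higher one in 4 of 4 combinations of sex and replicate number. With the block the change was 0.42 (SE 0.18, p 0.0465, edgeR adjusted p 0.770), and 6.38% of all genes reached an unadjusted p under 0.05 there. The sum of all nuclei also held unnamed clusters. A cluster of 983 nuclei, 83.3% of them from Chd8het male 2, was at 3.44 CPM of Hcn4 on 35 UMIs. Clusters of 2853 and 1426 nuclei were at 2.69 and 0.591 CPM. A change in make-up and a change per nucleus therefore cannot be told apart in this sum. In Vip-like nuclei the libraries had 2.24, 2.06, 1.02 and 2.87 CPM in WT and 2.04, 2.30, 5.61 and 3.71 CPM in Chd8het, on 1 to 6 UMIs each, and the ranges overlapped.

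Between index types, unlike between genotypes, 3 of the 4 genes passed the test in some class. Every replicate 1 was a single-indexed library and every replicate 2 a dual-indexed one, so index type is balanced over genotype. With index type in the model, Pex5l was called in 8 of 19 classes and in all nuclei, each time higher in dual-indexed libraries, with log2 differences of 0.76 in microglia, 0.69 in astrocyte, 0.62 in OPC, 0.55 in L6 IT, 0.48 in L2/3 IT, 0.46 in L4/5 IT, 0.30 in L5 IT, 0.22 in Pvalb and 0.23 in all nuclei. Over the classes 13.9% of all gene tests were called between index types, and 34.1% over all nuclei, so Pex5l was among many.

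Pex5l was not called between index types where it is most abundant. In L5 ET the log2 difference was 0.00 (SE 0.07, edgeR adjusted p 0.998), and in oligodendrocytes it was -0.06 (SE 0.15, edgeR adjusted p 0.853). Hcn2 was called in oligodendrocytes, lower in dual-indexed libraries by a log2 difference of -0.73 (SE 0.13, edgeR adjusted p 0.00106), where 10.7% of genes were called. Hcn3 was called in L5 ET, higher in dual-indexed libraries by 0.70 (SE 0.23, edgeR adjusted p 0.0430), where 22.2% of genes were called.

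The genotype difference was not called as differing between the sexes for any of the 4 genes, and 0% of 204127 gene tests over the classes were called for that term. The largest term of a member with the usual count filter was that of Hcn3 in L5/6 NP, -1.07 (SE 0.76, edgeR adjusted p 1). For Pex5l it was in oligodendrocytes, 1.02 (SE 0.26, unadjusted p 0.00258, edgeR adjusted p 1), and Lamp5 and L6b also had an unadjusted p under 0.05 for this term.

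Genes linked to the channels and the enzymes that set cyclic AMP were examined from lists made from general knowledge, with earlier results of these data known. None of the 47 listed genes passed the test in any class or over all nuclei, where 0% of genes were called. Of 17 genes listed as partners, regulators or relatives of HCN channels or TRIP8b, Rest and Pex5 included, all were tested over all nuclei. They had 11 negative and 6 positive log2 changes and a median of -0.01, against 0.00 for all genes. Magi2, a scaffold protein, was at 2551 ± 80.1 CPM in WT and 2540.4 ± 176 in Chd8het, and Apba2, an adaptor of vesicle transport, at 356 ± 68.1 and 339 ± 41.9 (SD, n = 4 each).

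Of 8 adenylyl cyclases, which make cyclic AMP, 3 had negative and 5 positive log2 changes, with a median of 0.04. Adcy2 was at 462 ± 51.9 CPM in WT and 439 ± 48.7 in Chd8het, and Adcy1 at 112 ± 4.01 and 121 ± 8.73. Of 10 potassium channels that set resting conductance alongside Ih, 6 were negative and 4 positive, with a median of -0.02. Kcnj3, a G protein-gated inward rectifier, was at 502 ± 146 and 510.5 ± 161 CPM.

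Of 12 phosphodiesterases, which break cyclic AMP down, 10 had negative and 2 positive log2 changes over all nuclei, with a median of -0.04. With the block for sex and replicate number, 4 of 218 tests of this list passed over the classes, all lower in Chd8het, beside 0.0314% of all gene tests. At an unadjusted p under 0.05 (edgeR with the block) there were 33 of 218 tests of this list and 21 of 132 of the adenylyl cyclases. The first list of 17 genes had 11 of 225 and the potassium channels 10 of 161, beside 6.17% of all gene tests. The lists were chosen with earlier results of these data known, and the classes share the same animals. No enrichment of any list is therefore read from these values. The 4 tests that passed were Pde10a, a phosphodiesterase best known from the striatum, in L5 ET, L5/6 NP and Vip, and Pde7b, a cyclic AMP-specific enzyme, in Vip. Pde10a was negative in 18 of 19 classes, with log2 changes from -0.96 to 0.37 without the block. The share of all genes with such a shared direction was not counted.

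In L5 ET-like nuclei Pde10a was at 864, 1865, 854 and 1870.0 CPM in WT and 679.6, 1559.7, 627 and 1389 CPM in Chd8het, in the order used above. Levels in dual-indexed libraries were the higher ones in each genotype, and within each index type every Chd8het library lay below every WT library. The log2 change was -0.42 (SE 0.36, edgeR adjusted p 1), and with the block -0.42 (SE 0.06, edgeR adjusted p 0.0323). Without the block, leaving out 1 library moved the change in L5 ET between -0.70 (without Chd8het male 2) and -0.13 (without WT female 2). In L5/6 NP it moved between -0.81 and -0.27 and in Vip between -0.96 and -0.11, with the same libraries at the ends. With the block it was -0.50 (SE 0.08, edgeR adjusted p 0.0105) in L5/6 NP and -0.51 (SE 0.09, edgeR adjusted p 0.0178) in Vip.

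Pde7b in Vip-like nuclei was at 143, 239, 159 and 214 CPM in WT and 117, 143, 104 and 155 CPM in Chd8het. Its log2 change was -0.58 without the block (SE 0.19, edgeR adjusted p 1) and -0.58 with it (SE 0.11, edgeR adjusted p 0.0450). Pde10a is abundant in striatal neurons, and 326 striatal projection neuron-like nuclei were present in these samples, 0 to 35 in the single-indexed and 40 to 132 in the dual-indexed libraries. By library their number was 0, 51, 35 and 132 in WT and 1, 40, 0 and 67 in Chd8het, so it was also lower in Chd8het in 3 of 4 combinations of sex and replicate number. The summed level of 8 striatal markers in L5 ET-like nuclei was 307 to 371 CPM in WT and 301 to 366 CPM in Chd8het, ranges that overlapped. In L5/6 NP it was 509.7 to 646 and 358 to 595 CPM, and in Vip 49.0 to 97.6 and 69.2 to 107 CPM. In L5 ET most of this sum came from Meis2 (912 to 1567 UMIs per library), with 113 to 328 UMIs of Rarb and 27 to 112 of Rgs9. Drd1 had 0 UMIs in 3 and Adora2a in 5 of the 8 libraries of L5 ET, while the other 6 markers had at least 1 UMI in every library. The part of striatal RNA in the Pde10a difference was not tested.

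**Figure D5:**
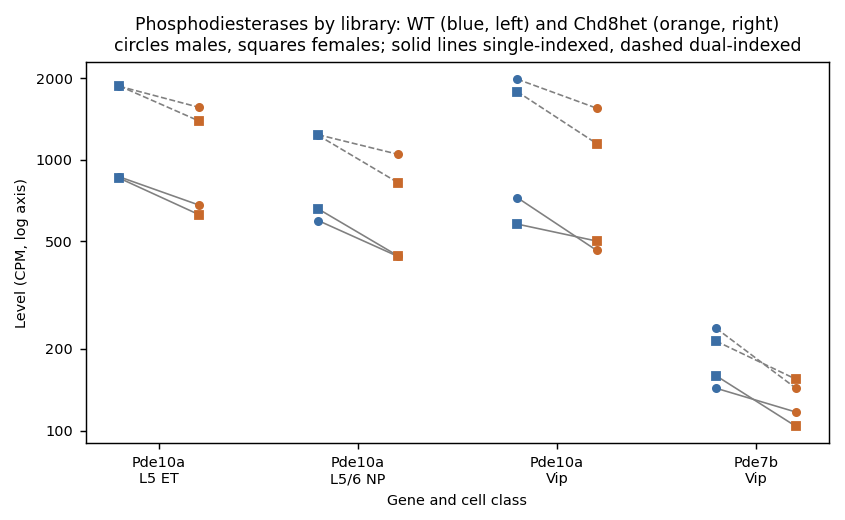
Pde10a in L5 ET-, L5/6 NP- and Vip-like nuclei and Pde7b in Vip-like nuclei (CPM, log axis), WT in blue on the left and Chd8het in orange on the right. Circles are males and squares females, and lines join libraries that share sex and replicate number, solid for single-indexed and dashed for dual-indexed. All lines go down, and for Pde10a the gap between index types (864 and 854 against 1865 and 1870.0 in WT L5 ET) is larger than that between genotypes.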

How the data were processed

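Single-nucleus libraries (10x 3′ version 3) were made from the cortex of 8 mice. The deposited matrices hold UMI counts per gene and barcode. Per the submitters' processing notes, STAR 2.7.9a, STARsolo, Cell Ranger and the mm10 build were used, with no role or order given, and the strand and intron settings are not given in the sources used here. Nuclei with at least 500 genes and at most 5% mitochondrial UMIs were kept (82168 of 97772 barcodes), and 4278 called doublets (5.21%) were removed. Clusters were built in Python 3.11.15 with scanpy 1.11.5 and leidenalg 0.10.2, and 30 of 52 were named from markers. Pex5l, the Hcn genes followed here and the lists of related genes were left out of the clustering. Other genes named here, such as Slc17a7 and the antisense RNAs over Pex5l, were not covered by this exclusion. A rule that left clusters unnamed where their transmitter genes went against the name was chosen after the clusters were seen.

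Counts were summed per library and class and tested with edgeR 4.0.16 in R 4.3.3 (TMM, filterByExpr with a minimum count of 10, quasi-likelihood F test, two-sided, sex and genotype as terms, Benjamini-Hochberg over all genes of a class). The fit was tested on simulated data. DESeq2 1.42.0 was an alternative, and its fit with the replicate block was added after the data were seen. Other alternatives were size factors, no count filter, no sex term, index type as a term, a stricter nucleus filter, doublets kept, nuclei named by their own marker score, and each library left out. Coding sequences were aligned with Biopython 1.88. The 4 genes and the lists of related genes were chosen with earlier results of these data known. Named genes are the 4 genes, list genes that passed a test or else the 4 most abundant of a list, and the 5 genes most alike in profile. WT and Chd8het libraries matching in sex and replicate number were treated as pairs after a check. In 18 of 20 sums their deviations from the group means correlated above 0.1 in all 4 pairs, with r from 0.415 to 0.624 over all nuclei. Libraries of the same index type and the other sex had r from 0.302 to 0.414 there, and the own pair was best in 72 of 80 cases. The own partner is the only library of the other genotype with the same sex and index type, and neither was removed before the check. The check therefore cannot show which libraries are litter mates. The block takes up index type as well as anything else a pair shares. Intervals and floors cover counting error only.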

Additional observations from a re-analysis of the deposited data

Results flagged for a closer look

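In L5/6 NP-like nuclei, Chd8het female 1 had 5.84 CPM of Hcn4, far from the other 7 libraries, which ran from 0 to 3.05 CPM. The value rests on 7 UMIs. Its gap to the nearest library of its genotype was 0.929 of that group's range, above Dixon's critical value for 4 samples. Chance flags about 1 in 20 groups, and 40 groups were checked.

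The genotype difference of Pex5l in oligodendrocyte-like nuclei had opposite signs in the sexes, lower in both Chd8het males and higher in both Chd8het females than in every WT library. The term for sex by genotype was 1.02 on the log2 scale (edgeR adjusted p 1). Without the low-count filter it was 1.04 (edgeR adjusted p 0.0180). DESeq2's Wald test, the other alternative run for this term, did not call it. How often chance raises this flag was not worked out.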

How the results depend on the processing

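Under the 18 alternatives run, no member was called between genotypes in any class or over all nuclei. Treating sex and replicate number as a pairing (replicate block) raised the genes called over the 19 classes from 0 to 64 and the calls among the related lists from 0 to 4. Index type as a term gave 39 and 4, no count filter 168 and 6, and DESeq2 with the replicate block 137 and 8. DESeq2 without it called 12 genes over the classes. Over all nuclei DESeq2 called 5 genes, and 43 with the block. Leaving out 1 library gave 0 to 2 calls over the classes. Without the count filter 1 member, Pex5l in oligodendrocytes, was called for the sex by genotype term, among 12 of 22480 genes there. With DESeq2's Wald test no member was called for that term. Naming nuclei by their own score took Pex5l in L5 ET from 3261 to 2675 CPM. The cause was not tested.

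Some log2 changes near 0 changed sign. With nuclei named by their own score, Hcn2 in L5 ET came to 0.028 and Hcn3 in Sst to 0.0056. With 1 library left out, Hcn2 in oligodendrocytes ran from -0.11 (without Chd8het female 1) to 0.35, and was -0.035 without WT female 2. Hcn2 in all nuclei ran from -0.033 (without WT female 2) to 0.0905, and was -0.022 without Chd8het female 1. Hcn3 ran from -0.0049 (without WT male 2) to 0.26 in L5 IT, from -0.28 to 0.053 (without Chd8het female 1) in Sst, and from -0.019 (without Chd8het male 2) to 0.23 in all nuclei. Pex5l in oligodendrocytes ran from -0.25 to 0.084, the latter without Chd8het male 2. Pex5l in all nuclei stayed negative, from -0.30 to -0.15, as did L5 IT (-0.46 to -0.24) and L6 CT (-0.46 to -0.27). In proportion to their size other classes moved more: L4/5 IT reached -0.12 and L6 IT -0.15 without WT female 2, and L5/6 NP reached -0.16 and L5 ET -0.07 without Chd8het male 2. Pde10a in L5 ET, L5/6 NP and Vip was called with the block, with index type as a term and with DESeq2 and the block, and in L5/6 NP also with no count filter. Depth limits Hcn4 most, with 534 UMIs in all nuclei together.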

Other observations

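Pooled over libraries, nuclei outside the 19 classes also held these genes. Pex5l was at 569 CPM in 191 Car3 IT-like nuclei, 461 in 422 mural-like nuclei and 238 in 326 striatal projection neuron-like nuclei. Hcn2 was at 22.4, 26.3 and 27.5 CPM in the same order. An unnamed cluster of 2853 nuclei had 1082 CPM of Pex5l, 8.46 of Hcn3 and 2.69 of Hcn4, the last on 84 UMIs. A cluster of 983 nuclei, 83.3% of them from Chd8het male 2, had 867 CPM of Pex5l and 3.44 of Hcn4.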
